A study of Mus musculus with 6 samples.

Results

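Tight junctions are the outermost seals between epithelial cells, and 9 genes that encode their parts were followed in cultured mouse mammary epithelial cells with and without Jarid1b. The genes are the claudin genes Cldn1, Cldn3, Cldn4, Cldn7 and Cldn8, the occludin gene Ocln, the adhesion molecule gene F11r and the scaffold genes Tjp1 and Tjp3. All probes whose platform gene symbol, current or older, was one of these were taken, which gave 11 probes of 45281 on the array and 9 genes of 19053 with a symbol. Cldn8 and Tjp3 had 2 probes each and the other members 1 each. Of the 9 genes 8 were detected on all 6 arrays and entered the test among 10418 genes, and Cldn8 did not.

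The study compared gene expression on Illumina bead arrays between 3 wild-type (WT, Jarid1b+/+) and 3 knockout (KO, Jarid1b-/-) cultures. Jarid1b, now named Kdm5b, codes for an enzyme that takes methyl groups off lysine 4 of histone H3. RNA was taken from early-passage cells at 80% confluence, in pairs of 1 WT and 1 KO culture lettered A, B and C. The labels name no strain, age, Cre line or treatment. Nor do they state whether the cultures derive from separate animals, and all p-values here therefore refer to the spread among these 6 cultures, part of which may be technical. The cultures had not closed to a full sheet, which limits them as a model of a sealed epithelium.

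In a tight junction, claudins form the strands that join neighbouring cells and set which ions pass between cells. Occludin and the junctional adhesion molecule encoded by F11r are further membrane parts, and the ZO proteins encoded by Tjp1 and Tjp3 bind the tails of claudins from inside the cell and tie them to actin. In the mammary gland these seals keep milk apart from the tissue fluid, and low levels of Cldn3, Cldn4 and Cldn7 give the claudin-low class of breast tumours its name. Repressors of the Snail and Zeb families are known to bind a short sequence, the E-box, in promoters of epithelial genes, claudins and occludin among them.

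The promoter windows of 5 members are shown because these genes had the same sign in all 3 pairs (Cldn4, Ocln, Cldn1 and Tjp1) or neighbour Cldn4 on chromosome 5 (Cldn3). Each window runs from 250 bases before to 50 bases after a start annotated by RefSeq on GRCm38.p6 and is written 5′ to 3′ on the gene's strand. Capitals mark the E-box CAGGTG or its reverse complement CACCTG. For Ocln the start 1 of its annotated starts is shown.
Cldn4 (chr5:134946885-134947184, minus strand): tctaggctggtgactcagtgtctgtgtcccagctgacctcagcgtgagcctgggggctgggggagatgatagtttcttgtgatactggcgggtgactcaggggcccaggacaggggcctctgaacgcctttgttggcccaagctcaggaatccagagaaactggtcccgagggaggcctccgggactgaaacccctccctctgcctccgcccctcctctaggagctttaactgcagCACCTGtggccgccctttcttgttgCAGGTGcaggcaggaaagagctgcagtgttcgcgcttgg
Cldn3 (chr5:134985964-134986263, plus strand): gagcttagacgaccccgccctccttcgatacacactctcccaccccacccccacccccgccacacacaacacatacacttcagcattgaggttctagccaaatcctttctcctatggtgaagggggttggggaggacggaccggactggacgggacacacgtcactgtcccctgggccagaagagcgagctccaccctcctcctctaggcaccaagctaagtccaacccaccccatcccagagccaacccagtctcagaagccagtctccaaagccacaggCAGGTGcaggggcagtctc
Ocln (chr13:100552669-100552968, minus strand): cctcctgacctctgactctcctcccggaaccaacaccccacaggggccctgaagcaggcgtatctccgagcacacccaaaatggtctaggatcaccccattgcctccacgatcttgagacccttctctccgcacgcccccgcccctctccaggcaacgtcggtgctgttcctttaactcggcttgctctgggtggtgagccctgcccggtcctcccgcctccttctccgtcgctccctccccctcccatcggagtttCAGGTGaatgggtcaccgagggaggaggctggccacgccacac
Cldn1 (chr16:26371790-26372089, minus strand): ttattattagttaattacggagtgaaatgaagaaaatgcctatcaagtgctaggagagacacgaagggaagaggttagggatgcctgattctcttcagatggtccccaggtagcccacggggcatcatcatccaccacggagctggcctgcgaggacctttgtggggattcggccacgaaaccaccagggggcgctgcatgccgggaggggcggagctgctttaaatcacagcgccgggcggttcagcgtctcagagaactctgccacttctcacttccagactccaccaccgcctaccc
Tjp1 (chr7:65371195-65371494, minus strand): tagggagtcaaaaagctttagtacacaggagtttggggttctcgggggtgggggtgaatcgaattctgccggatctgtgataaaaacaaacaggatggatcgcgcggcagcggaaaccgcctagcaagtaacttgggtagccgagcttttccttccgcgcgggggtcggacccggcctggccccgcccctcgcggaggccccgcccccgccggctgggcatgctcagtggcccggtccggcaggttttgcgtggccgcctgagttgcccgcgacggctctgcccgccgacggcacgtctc

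Windows were found for 8 of the 9 members, 11 windows in all, and the entry for Cldn8 was missing. An E-box, searched on both strands, was present in at least 1 window of 6 members (Cldn3, Cldn4, Cldn7, Ocln, F11r and Tjp3) and in no window of Cldn1 and Tjp1. Of all 32851 windows 20.2% held at least 1 E-box and 2.88% held 2 or more, and of 27025 genes 22.6% had one in any window. The Cldn4 window held 2 E-boxes, whose first bases lay at -14 and 12 from the start, and the Cldn3 window held 1 at 32. The windows of start 2 of Cldn7 (-97 and -57) and of start 2 of Ocln (-213 and -68) also held 2. In Ocln the match of the window shown began at 8, and since the windows of its annotated starts overlap, the match at -213 from start 2 is the same site. The match at -68 from start 2 is a further site. The binding motif of Grainyhead-like factors, AACCNGTT, searched on both strands, had 0 matches in the members' windows, against 2.09% of all windows with a match. A match of letters is a description of the sequence, and whether any factor binds there was not tested.

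**Figure D1:**
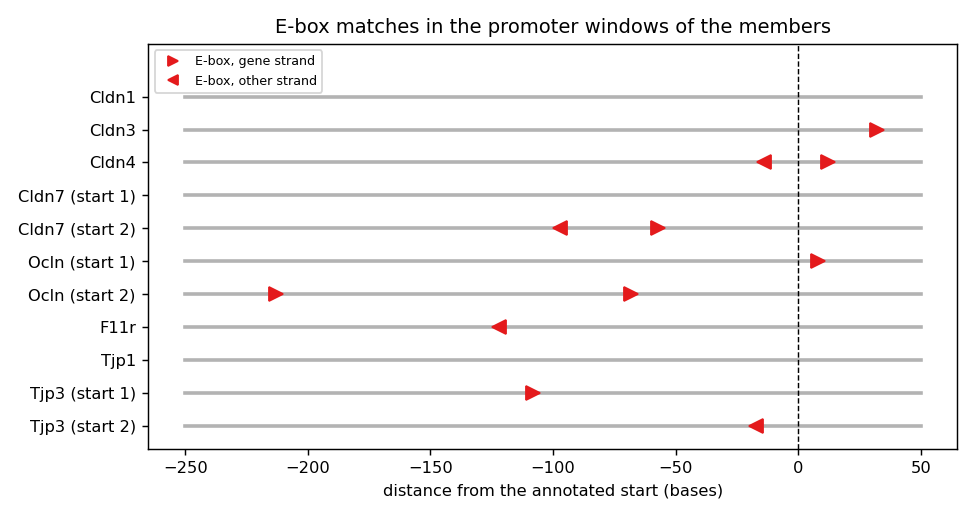
Positions of E-box matches (arrowheads, pointing right on the gene's strand and left on the other) in the 11 promoter windows of 8 members, by distance in bases from the annotated start (dashed line). Cldn1, Tjp1 and start 1 of Cldn7 have none, and both matches of Cldn4 lie close to the start.

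The knockout was seen in the targeted gene. On the brightest Kdm5b probe the log2 intensity was 7.07, 6.89 and 6.60 in WT A, B and C and 4.42, 4.42 and 4.34 in KO A, B and C. Kdm5b fell by 2.46 on the log2 scale (SE 0.19, limma adjusted p = 0.0149), and since no KO array detected it, the fall on this probe was at least 4.94-fold. Its other tested probes, also detected on no KO array, gave -2.35 and -0.90, with falls of at least 4.51-fold and 1.51-fold. No source used here places these probes relative to the deleted part. By the brightest probe, the limma adjusted p of Kdm5b was 0.113, 0.134 and 0.112 without KO replicate A, B and C, with log2 values of -2.46, -2.53 and -2.41. On the authors' own values it was 0.194 (-0.89), without background correction 0.196 (-0.87) and with an offset of 50 it was 0.0980 (-1.44). Arrays detected 17033 to 18686 probes each, their median raw intensity lay between 95.3 and 100.7, and both arrays of pair C stood apart on the component that held 56.1% of the variance. On the next component, with 20.1%, KO A alone stood at -37.4 and the other arrays at -6.09 to 15.5. The results below are therefore given pair by pair. Of the epithelial markers, Krt8, Krt18, Krt7, Krt19, Krt5, Krt14 and Cdh1 were detected on all 6 arrays, while the only Epcam probe was detected on 0 arrays.

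None of the tight junction members passed the test between KO and WT. In limma with Benjamini-Hochberg adjustment over all genes 0 of 8 had an adjusted p under 0.05, where 0.0192% of all genes passed, and 0 of 8 had an unadjusted p under 0.05, where 3.03% of all genes did. In a fit with a replicate block for the pair, 0 members passed the adjusted threshold (0.0288% of all genes did) and 1, Cldn4, had an unadjusted p under 0.05 (7.89% of all genes did). The median log2 difference of the 8 was -0.14, beside -0.01 over all genes tested. For no member were the groups free of overlap, where 5.16% of all genes were lower and 3.11% higher in KO without overlap. In such bulk samples fewer cells of a type and less RNA per cell cannot be told apart. A p that misses the threshold does not show equal expression, and the intervals below give the sizes these arrays leave possible.

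**Figure D2:**
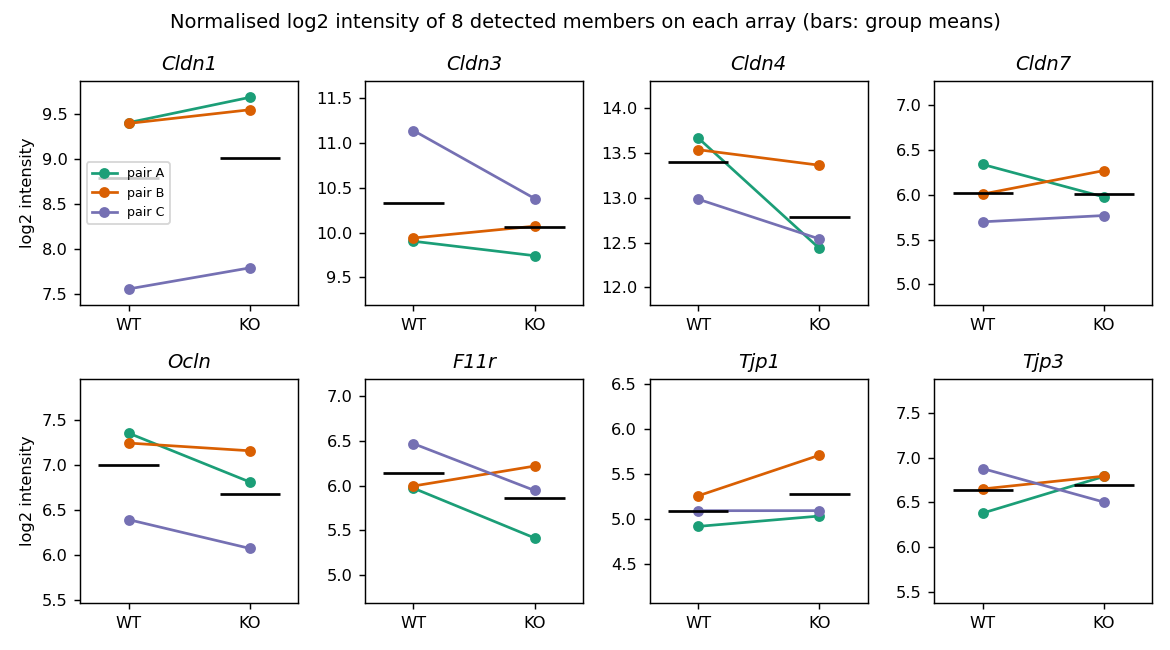
Normalised log2 intensity of each detected member in WT and KO, with lines joining the cultures of a pair and bars at group means, each panel spanning the same log2 range. For Cldn1 pair C lies far below the other pairs and KO is above WT in every pair, and Cldn4 is lower in KO in every pair.

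Cldn4 encodes a claudin of luminal epithelium that tightens the seal against sodium, and it had the largest difference among the members tested. Its log2 intensity was 13.67, 13.54 and 12.98 in WT A, B and C and 12.44, 13.36 and 12.54 in KO A, B and C. KO A and KO C lay below all WT arrays, while KO B lay between WT C and WT B. The group means were 13.40 ± 0.36 (SD, n = 3) and 12.78 ± 0.51 (SD, n = 3). The difference of -0.62 (SE 0.31, 95% interval -1.35 to 0.12) corresponds to 1.53-fold and did not pass (limma unadjusted p = 0.0871, adjusted p = 0.9999). With the replicate block the unadjusted p was 0.0335 and the adjusted p 0.602. Cldn4 was lower in KO in 3 of 3 pairs, by differences of -1.23, -0.17 and -0.44, so that pair A carried most of the mean. KO A, the array set apart on the second component, was also the lowest for Krt7, a luminal keratin named after its values were seen. The pair A difference of Krt7, -1.54, was the largest fall among the luminal markers tested. Of these 12 markers 8 were lower in KO in pair A, with a median of -0.69, beside 51.1% of all genes. Others were higher there, such as Elf5 (0.59) and Muc1 (0.31). The part of KO A in the Cldn4 value was not tested.

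Cldn3, the neighbour of Cldn4 and like it a receptor for a clostridial toxin, read 9.90, 9.94 and 11.14 in WT A, B and C and 9.74, 10.07 and 10.38 in KO A, B and C (log2 intensity). WT C was the highest array and KO C the next, the other values ran from 9.74 to 10.07, and the groups overlapped. The difference was -0.26 (SE 0.37, 95% interval -1.13 to 0.60), made of -0.16 for pair A, 0.13 for B and -0.76 for C. Without WT replicate C, which leaves KO C unpaired in a fit without the pair letter, the value was 0.14. With pairs A and B only, a choice made after seeing the data, it was -0.015.

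Cldn7, a claudin found along the lateral membrane as well as at the seal, read 6.34, 6.01 and 5.70 in WT A, B and C and 5.98, 6.27 and 5.77 in KO A, B and C (log2 intensity). The groups covered nearly the same range. The difference was -0.01 (SE 0.23, 95% interval -0.56 to 0.54), and its sign turned without WT replicate A (0.15), KO replicate A (0.0043) or KO replicate C (0.11).

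Cldn1 encodes the claudin that is essential for the barrier of the skin. It read 9.41, 9.40 and 7.55 in WT A, B and C and 9.69, 9.55 and 7.79 in KO A, B and C (log2 intensity). Both arrays of pair C were far below the other arrays, and within each pair KO was above WT. The difference of 0.22 (SE 0.67, 95% interval -1.36 to 1.80) had pair values of 0.28, 0.15 and 0.24. With the replicate block, which takes out the level of each pair, the SE was 0.15 (unadjusted p = 0.181, adjusted p = 0.695). The value turned to -0.12, -0.05 and -0.40 without KO replicate A, KO replicate B and WT replicate C and to -0.16 with array weights. Each of these leave-outs keeps the partner array unpaired in a fit without the pair letter. With pairs A and B only the value was 0.22.

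Cldn8, a claudin of the distal kidney and other tight epithelia, was not detected on any array by either probe. Its raw intensities ran from 94.7 to 99.2 on one probe and from 91.9 to 98.0 on the other, with detection p-values of 0.175 to 0.509 and 0.280 to 0.625. These values lay within the background, so no comparison was made.

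Ocln read 7.36, 7.25 and 6.39 in WT A, B and C and 6.81, 7.16 and 6.07 in KO A, B and C (log2 intensity). Pair C was low in both genotypes, and KO was below WT in every pair. The difference was -0.32 (SE 0.37, 95% interval -1.18 to 0.55), with pair values of -0.54, -0.09 and -0.32. With the replicate block the SE was 0.16 and the unadjusted p 0.0987 (adjusted p = 0.651).

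F11r, which encodes JAM-A, a membrane protein of the immunoglobulin family, lies on chromosome 1, as Kdm5b does. It read 5.97, 5.99 and 6.47 in WT A, B and C and 5.41, 6.22 and 5.94 in KO A, B and C (log2 intensity). KO A was the lowest array and WT C the highest. The difference was -0.28 (SE 0.26, 95% interval -0.91 to 0.34), with pair values of -0.56, 0.22 and -0.52, so pair B ran against the others.

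Tjp1 and Tjp3 encode ZO-1 and ZO-3. Tjp1 read 4.91, 5.26 and 5.09 in WT A, B and C and 5.03, 5.71 and 5.09 in KO A, B and C (log2 intensity), close to the dimmest detected signals of 4.49 to 4.60. KO B was the highest array, and the difference of 0.19 (SE 0.24, 95% interval -0.37 to 0.74) turned to -0.03 without KO replicate B. The brighter Tjp3 probe read 6.38, 6.65 and 6.88 in WT A, B and C and 6.79, 6.79 and 6.504 in KO A, B and C. Its difference was 0.06 (SE 0.20), or -0.04 with median scaling, while the other Tjp3 probe gave -0.27. The probes of Tjp3 thus disagreed in sign, and both were below WT in pair C, with differences of -0.37 and -0.69.

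**Figure D3:**
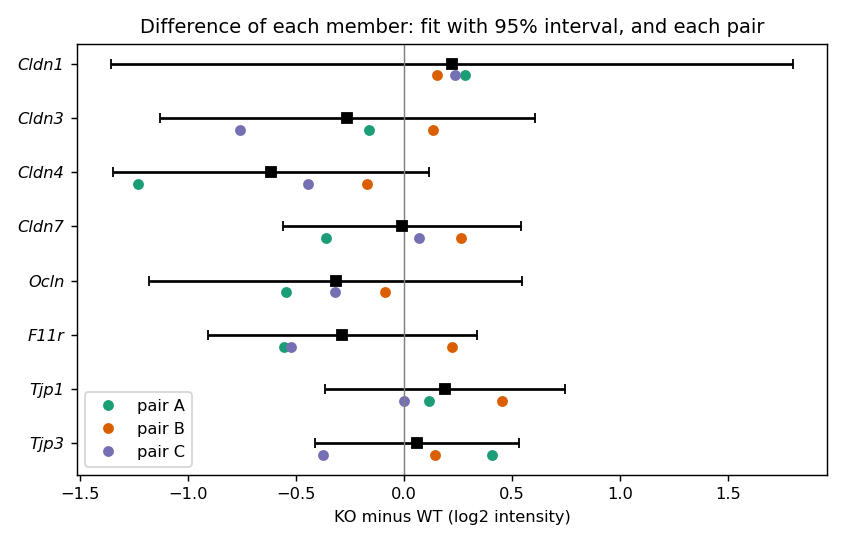
KO minus WT on the log2 scale for each detected member, as the fitted difference with its 95% interval (squares and bars) and as the difference within each pair (coloured points). All 8 intervals include 0, and for 6 of 8 members pair B lies to the right of pairs A and C.

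The pairs differed among themselves more than the genotypes did for several members. The mean of both pair C arrays minus that of pairs A and B was -1.84 for Cldn1, -0.91 for Ocln, -0.49 for Cldn4 and -0.41 for Cldn7 on the log2 scale. It was 0.84 for Cldn3, 0.31 for F11r and 0.04 for Tjp3. The range of pair means was 1.88 for Cldn1, against a mean absolute KO to WT difference within pairs of 0.22. For Cldn4 these values were 0.69 and 0.62, and for Tjp3 they were 0.14 and 0.31. A range and a mean of differences are unlike measures, so the close values of Cldn4 do not rank pair against genotype. By the array letters in the labels, each pair took neighbouring positions of a single chip, so pair and position cannot be told apart.

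KO and WT differed in unlike ways in the 3 pairs. In pair A 5 of 8 members were lower in KO, in pair B 2 of 8 and in pair C 5 of 8, beside 51.1%, 53.4% and 54% of all genes. The medians over the 8 were -0.26 for pair A, 0.15 for B and -0.35 for C. Lower in all 3 pairs were 2 of 8 members, Cldn4 and Ocln, where 18.4% of all genes were, and higher in all 3 pairs were 2 of 8, Cldn1 and Tjp1, where 13% of all genes were. Tjp1 belongs there only by a difference of 0.000377 in pair C. Without KO replicate B all 8 members had negative group differences with a median of -0.29, where 52.1% of all genes were lower and their median was -0.02. That fit leaves out the pair letter and keeps WT B without its partner. Cldn1 was -0.05 in it, against differences of 0.28 and 0.24 within pairs A and C. Tjp1 was -0.03, against 0.12 and 0.000377 within those pairs. In that fit 1 member, Cldn4, had an unadjusted p under 0.05 in limma, as did 6.92% of all genes. Cldn4 was also the 1 member under it without WT replicate C (5.04% of all genes) and with array weights (11.1% of all genes).

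Other claudins differed in both directions and none passed. Of 18 further claudin genes 15 had a probe and 8 were tested, 3 lower and 5 higher in KO, with a median of 0.13. Cldn10, which forms ion pores in the kidney, read 11.06, 11.25 and 11.91 in WT A, B and C and 9.55, 10.67 and 11.32 in KO A, B and C (log2 intensity). It was lower in 3 of 3 pairs, with a difference of -0.90 (SE 0.46, adjusted p = 0.9999 in limma), and its other probes gave -0.79 and -0.98. With the replicate block the unadjusted p was 0.00619 and the adjusted p 0.467.

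Cldn5, the main claudin of blood vessel endothelium, read 9.16, 9.17 and 9.09 in WT A, B and C and 9.51, 10.38 and 9.40 in KO A, B and C (log2 intensity). All KO arrays lay above all WT arrays, KO B by the most, and the difference was 0.62 (SE 0.28, adjusted p = 0.9999 in limma). Cldn6, an early embryonic claudin, differed by 0.63 (SE 0.38) and Cldn11, known from myelin and testis, by 0.56 (SE 0.44). In pairs A, B and C the differences were 0.35, 1.22 and 0.31 for Cldn5 and 0.15, 1.11 and 0.62 for Cldn6. For Cldn11 they were -0.24, 1.05 and 0.86. Endothelial markers had a median difference of 0.99 in pair B, with 9 of 9 tested higher there, against -0.07 in pair A and 0.15 in pair C. The summed linear intensity of these markers ran from 3853 to 5314 in WT and from 3540 to 8539 in KO. Pecam1 and Cdh5 were detected on every array, while Kdr did not reach a detection p under 0.05 on 3 arrays. The part of the endothelial markers in the claudin values was not tested.

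Among other membrane proteins of the junction 6 of 9 tested genes had negative and 3 positive differences, with a median of -0.18, and 0 passed in limma. Marveld3, an occludin relative, differed by -0.40 (SE 0.19), with all KO arrays below all WT arrays, though by only -0.04 in pair C. Igsf5, or JAM4, differed by -0.45 (SE 0.23) on its brightest probe and by -0.37 and 0.14 on its other tested probes. Lsr, which marks corners where 3 cells meet, differed by -0.25 (SE 0.19). Its relative Ildr2 differed by 0.55 (SE 0.25), with -0.03 for pair A, 1.05 for B and 0.64 for C.

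Scaffold and polarity genes, which hold the seal to actin and set apart the faces of the cell, were near the level of all genes. Of 18 tested 9 were lower and 9 higher in KO, the median was -0.01, and on the brightest probe of each gene the differences ran from -0.30 to 0.28. Those extremes were Cgnl1, encoding paracingulin (SE 0.27; -0.72 on its other tested probe and -0.51 for the mean of both), and Pard6g (SE 0.34), a polarity adaptor. Pard6b, its paralogue, differed by -0.26 (SE 0.21) and was detected on only 1 of 3 KO arrays, and Patj, a scaffold of the Crumbs complex, differed by -0.19 (SE 0.21).

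In the neighbouring adherens junction 9 of 12 genes were lower in KO, with a median of -0.13. Ctnnd1, encoding p120-catenin, which holds cadherins at the membrane, read 8.08, 8.10 and 7.94 in WT A, B and C and 7.64, 7.80 and 7.36 in KO A, B and C (log2 intensity). KO lay below WT on all arrays, with a difference of -0.44 (SE 0.19, limma unadjusted p = 0.0504). The nectin gene Nectin2 differed by -0.47 (SE 0.26), also without overlap, and by -0.06 and -0.27 on its other tested probes. Cdh1, the E-cadherin gene, differed by -0.30 (SE 0.22), and Jup, the plakoglobin gene, by -0.35 (SE 0.33), with 0.26 in pair B.

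Transcription factors and splicing factors that act on junction genes included the only gene of these lists with an unadjusted p under 0.05. Esrp2, an epithelial splicing regulator, read 7.98, 8.36 and 8.17 in WT A, B and C and 7.31, 7.80 and 7.81 in KO A, B and C (log2 intensity). All KO arrays lay below all WT arrays, with a difference of -0.53 (SE 0.21, limma unadjusted p = 0.0405, adjusted p = 0.9999), and a second probe gave -0.55. Grhl1, a Grainyhead-like activator of epithelial genes, differed by -0.50 (SE 0.23), also without overlap. Elf3, an epithelial ETS factor, differed by -0.93 (SE 0.49), with -1.57 for pair A, -0.25 for B and -0.98 for C and an unadjusted p of 0.00941 with the replicate block. Of the E-box repressors, Zeb2 differed by 0.50 (SE 0.25) on its brightest probe and 0.13 on the other, Snai2 by 0.55 (SE 0.31), Zeb1 by 0.44 (SE 0.28) and Snai1 by -0.05 (SE 0.45). The last 3 of these were named after their values were seen, and none had a common sign in all pairs.

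Over the 5 junction lists together, 62 of 83 genes were tested, 35 with lower and 27 with higher values in KO and a median of -0.04. In limma 0 passed with or without the replicate block, 1 had an unadjusted p under 0.05 (lower, against 1.65% of all genes lower and 1.38% higher), and with the block 8 lower and 3 higher did (against 4.2% and 3.69% of all genes). Lower in all 3 pairs were 17 of 62, or 27.4%, beside 18.4% of all genes, and higher in all 3 were 4, or 6.45%, beside 13% of all genes. Groups without overlap were found for 5 lower genes and 1 higher gene, beside 5.16% and 3.11% of all genes.

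**Figure D4:**
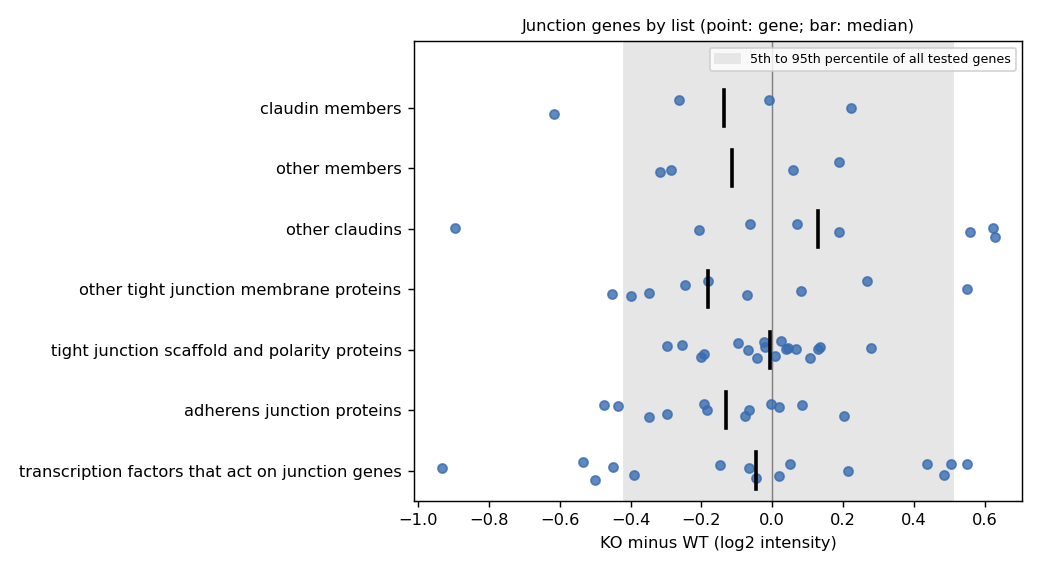
KO minus WT on the log2 scale for each tested gene of 7 junction lists (points) with the list median (bar) and the 5th to 95th percentile range of all tested genes (grey). Cldn4, Cldn10 and Elf3 lie furthest to the left in their lists, and the scaffold genes, each by its brightest probe, stay inside the grey range.

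Epithelial markers had negative differences for 6 of 7 tested genes, with a median of -0.31 and pair medians of -0.61, -0.23 and -0.13. Krt8 and Krt18, the keratins of luminal cells, differed by -0.21 (SE 0.19) and -0.46 (SE 0.27), and the mean of both was -0.76, -0.14 and -0.11 in pairs A, B and C. Relative to that keratin mean, Cldn4 differed by -0.48, -0.03 and -0.33 in the 3 pairs, Ocln by 0.21, 0.06 and -0.21, and Cldn1 by 1.04, 0.29 and 0.35. Averaged over the pairs, this value was -0.28 for Cldn4 and positive for every other tested member, from 0.02 for Ocln to 0.56 for Cldn1. In pair C it was also negative for Cldn3 (-0.64), F11r (-0.41) and Tjp3 (-0.26). For Krt14, a keratin of basal cells, the difference was -0.32 (SE 0.31). For its partner Krt5 it was 0.07 (SE 0.57), which turned to -0.04 under median scaling. Luminal markers had a median of -0.24 over 12 genes and basal markers one of -0.06 over 13. Their part in the members' values was not tested.

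Fibroblast markers were higher in KO for 16 of 17 tested genes, with a median of 0.70, and pair medians of 0.89, 0.06 and 0.89. Their summed linear intensity ran from 12572 to 14130 in WT and from 13240 to 21664 in KO. Postn did not reach a detection p under 0.05 on 3 arrays and was not tested. Of these markers 0 passed in limma and 9, all higher, had an unadjusted p under 0.05, beside 1.38% of all genes on that side. Vim, the mesenchymal filament gene, differed by 0.46 (SE 0.16), with all KO arrays above all WT arrays. The members' medians were negative in pairs A and C, where the fibroblast medians were high, and positive in pair B. Immune markers had a median of 0.60 over 5 tested genes of 10, with 1.32 in pair C, and summed linear intensities of 326 to 652 in WT and 435 to 3136 in KO. Ptprc, like Postn, missed the detection filter. The part of the fibroblast and immune signal in the members' values was not tested.

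**Figure D5:**
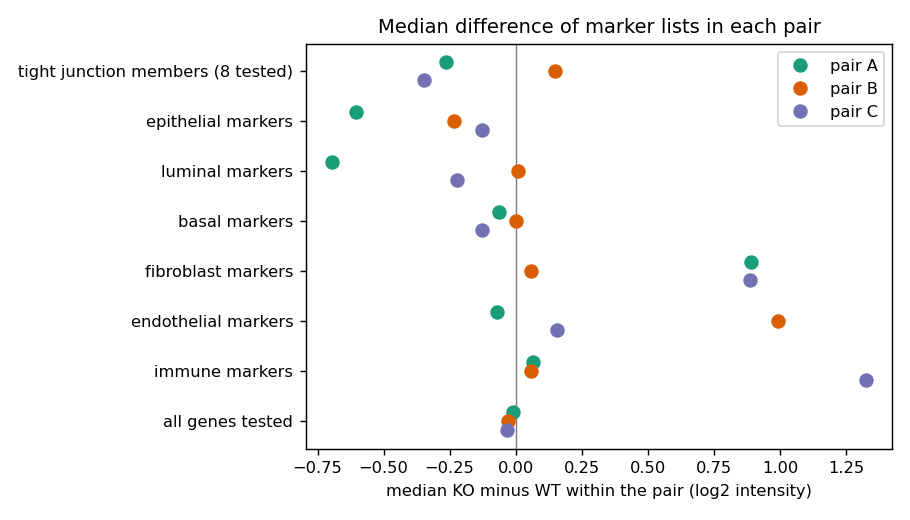
Median KO minus WT on the log2 scale within each pair for the 8 tested members, 6 marker lists and all genes tested. Fibroblast markers lie near 0.89 in pairs A and C and at 0.06 in pair B, endothelial markers at 0.99 in pair B, and the members at -0.26, 0.15 and -0.35.

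Likeness of pattern over the 6 arrays was measured as the root mean square difference of log2 values centred on each gene's mean. The genes closest to Cldn4 were Gdap1l1 (0.107), Arhgap40 (0.111) and Fitm2 (0.114), against a spread of Cldn4 itself of 0.474. A second Gdap1l1 probe had a KO to WT difference of -0.06, where the main one had -0.63. Closest to Cldn3 were Arhgef19 (0.0782), Ccn5 (0.0890) and Akap17b (0.0905), with a spread of Cldn3 of 0.464, and closest to Cldn7 were Fgfr1op2 (0.0586), Sos2 (0.0599) and Bcl10 (0.0625), with a spread of 0.235. Among the members themselves, Tjp1 and Tjp3 were closest at 0.238, then Cldn7 and Ocln at 0.289 and Cldn3 and F11r at 0.302, while Cldn1 and Cldn3 were farthest apart at 1.31. With 6 arrays and many genes, close matches of this kind are a description of these arrays.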

How the data were processed

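The deposited intensity values are probe brightness without normalisation or background subtraction, per the file headers and values, and the deposited detection p-value compares each probe with negative control beads of its array. The authors' value table gives log2 values of these 6 arrays after quantile normalisation, as its equal sorted columns show (median 6.75, Spearman correlation 1 with the raw values). No source used here gives its transform. The submitters' processing notes list GenomeStudio and lumi, without versions.

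Raw intensities went through neqc (limma 3.58.1, R 4.3.3; background from detection p-values, offset 16, quantiles, log2). Probes with detection p under 0.05 on at least 3 of 6 arrays were kept (17920), and a gene was its brightest probe, which gave 10418 genes. Of 45281 probes 34885 had 1 symbol, 18 several and 10378 are unnamed here. Symbols were updated through a RefSeq table of GRCm38.p6. Every column of values belonged to a sample.

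The KO to WT test was limma's lmFit and eBayes, two-sided, with Benjamini-Hochberg adjustment over all genes and a threshold of 0.05, without the pair letter. A bound of at least N-fold sets the WT mean against the higher of each KO array's lowest detected signal and the probe's own. Arrays of one letter deviated together from their group means (correlations 0.328, 0.480 and 0.718 for A, B and C), and the labels speak of pairs, so the letters were taken as pairs. WT A with KO B gave 0.454. The fit was also run on simulated arrays with known changes, whose spread was taken from the fit with the replicate block. Changes as small as those of the members were not simulated, so their recovery was not tested.

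Named were Kdm5b, all members, up to 4 genes of each junction list by smallest p, 7 fixed markers and the 3 genes closest in pattern to Cldn3, Cldn4 and Cldn7. Members and lists were chosen with earlier results of these data known. The precision is limited by the number of arrays.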

Additional observations from a re-analysis of the deposited data

How the results depend on the processing

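The count of members past the threshold was 0 under all 18 alternatives, as was that of the 5 junction lists, and the lowest adjusted p of a member was 0.380, with array weights. The count of all genes past it was 2 in the reported fit. It was 1 with no background correction, with the authors' own values, with an offset of 50 and with pairs A and B only (chosen after seeing the data), 0 with detection p under 0.01 on all 6 arrays, 6 with array weights and 3 with the replicate block, and it ranged from 1 to 2 when 1 array was left out. Kdm5b, detected on the 3 WT arrays alone, could not pass the filter on all 6 arrays, without a WT array or with pairs A and B only. It could therefore not be counted in those fits. The members' median of -0.14 ranged from -0.29 to -0.10 when 1 array was left out and was -0.06 without background correction, -0.03 with pairs A and B only and -0.24 with median scaling, which moved the median of all genes to -0.09. Without a detection filter it was -0.01, where the 8 tested members kept their values and undetected Cldn8 entered the median. Cldn4, Ocln and F11r were lower in KO under all 18 alternatives, with log2 values from -0.90 to -0.44, from -0.62 to -0.01 and from -0.47 to -0.06. Of 43 named genes 31 kept their sign under every alternative that gave a value, and 12 did not. Sign changes with array weights were Cldn1 (-0.16), Cldn3 (0.019), Fgfr1op2 (-0.035) and Sos2 (-0.064). With median scaling they were Tjp3 (-0.036), Krt5 (-0.036), Fgfr1op2 (-0.054) and Sos2 (-0.045), with the mean of probes Tjp3 (-0.11), and with pairs A and B only Fgfr1op2 (-0.039) and Sos2 (-0.069). When 1 array was left out, values ranged from -0.40 to 0.84 for Cldn1, from -0.47 to 0.14 for Cldn3, from -0.17 to 0.15 for Cldn7, from -0.028 to 0.31 for Tjp1, from -0.32 to 0.18 for Tjp3, from -0.41 to 0.72 for Krt5, from -0.47 to 0.14 for Arhgef19, from -0.51 to 0.012 for Ccn5, from -0.54 to 0.15 for Akap17b, from -0.14 to 0.18 for Fgfr1op2, from -0.18 to 0.22 for Sos2 and from -0.20 to 0.13 for Bcl10. When 1 array was left out, its partner stayed in a fit without the pair letter, so differences between pairs can enter these values. For Cldn1 KO was above WT in 3 of 3 pairs, and with pairs A and B only its value was 0.22. The cause of each change was not tested. Kdm5b was lower under all 13 alternatives that gave a value. With the replicate block the count of all genes with an unadjusted p under 0.05 was 822 in place of 316, that of members 1 in place of 0 and that of the junction lists 11 in place of 1. Each of the luminal, endothelial and immune lists had 1 such gene in place of 0. Among members, junction lists and marker lists the block changed no adjusted call. The dimmest members, Tjp1 above all, are limited by signal near background.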

Other observations

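Several junction genes with a probe did not pass the detection filter. Of the further claudin genes with a probe, Cldn2, Cldn13, Cldn14, Cldn16, Cldn17, Cldn18 and Cldn19 did not reach a detection p under 0.05 on 3 arrays, and neither did the tricellulin gene Marveld2, the adhesion molecule gene Jam3 or the cingulin gene Cgn. These 10 genes were named after their values were seen. A probe at background can also be a probe that reads its transcript poorly, and that was not tested.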
